A study of Mus musculus with 30 samples.

Results

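The transcripts of the 4 clock activators Arntl, Arntl2, Clock and Npas2 were followed in mouse hearts labelled as lacking both REV-ERB receptors in cardiomyocytes and in floxed control hearts. They were taken by symbol from a deposited table of 13575 genes, which held a single row for each of them. All 4 passed a filter of a mean of at least 0.5 FPKM over the 6 libraries, as did 13256 genes in all. FPKM is a fragment count scaled to transcript length and to the reads mapped in the library, so it allows levels of different genes to be compared. Arntl passed through the libraries labelled CM-RevDKO alone, since its mean in the libraries labelled control was below 0.5 FPKM, which was so for 168 of the genes tested.

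The hearts came from mice 2 months old and were taken at ZT10, which lies 10 hours into the light phase. Of 6 RNA libraries, 3 are labelled CM-RevDKO, the label of a double knockout of Rev-erbα and Rev-erbβ, and 3 are labelled as floxed controls. The labels' ChIP protocol describes mice that carry floxed alleles of both receptors with or without aMHC-Cre, Cre recombinase under the alpha myosin heavy chain promoter, which is active in cardiomyocytes. Whether the RNA controls carry Cre is not stated, and without it the action of Cre and the loss of receptors cannot be told apart. The atria were trimmed and the rest of the heart was used, so cells other than cardiomyocytes, which keep the receptors by design, contribute to every value. Sex and the number of animals per library are not given in the labels. All libraries are from the same time of day, so a shift in phase and a shift in mean level cannot be told apart.

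BMAL1, the product of Arntl, pairs with CLOCK or its relative NPAS2 through basic helix-loop-helix and PAS domains. The pair binds E-box sequences and switches on the genes of the Period and Cryptochrome repressors and of the REV-ERB receptors. REV-ERB proteins in turn repress Arntl through ROR elements, where the ROR receptors activate it, and this closes the second loop of the clock. Arntl2 encodes BMAL2, a close relative of BMAL1. In mouse tissues Arntl transcripts are known to be low near the end of the light phase, when REV-ERB proteins are abundant.

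RefSeq promoter windows of GRCm38.p6, which is mm10, were available for all 4 genes and run from 250 bases before a start site to 50 bases after it. They are shown for the 3 genes that were higher in the libraries labelled CM-RevDKO. Capitals mark matches to TNGGTNA on either strand, a relaxed form of the ROR element core TNGGTCA, and each sequence is printed in the direction of transcription. Of 2 windows for Arntl and 3 for Clock, 1 is printed for each. The Arntl window printed is the one with more matches to TNGGTCA.
Arntl, chr7:113207261-113207560, plus strand: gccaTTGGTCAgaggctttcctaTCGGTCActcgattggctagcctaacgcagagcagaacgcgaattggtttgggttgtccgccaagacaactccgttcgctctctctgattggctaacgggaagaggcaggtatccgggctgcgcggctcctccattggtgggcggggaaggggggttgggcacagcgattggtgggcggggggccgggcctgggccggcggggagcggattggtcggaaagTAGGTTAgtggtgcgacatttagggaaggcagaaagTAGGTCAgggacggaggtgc
Clock, chr5:76304743-76305042, minus strand: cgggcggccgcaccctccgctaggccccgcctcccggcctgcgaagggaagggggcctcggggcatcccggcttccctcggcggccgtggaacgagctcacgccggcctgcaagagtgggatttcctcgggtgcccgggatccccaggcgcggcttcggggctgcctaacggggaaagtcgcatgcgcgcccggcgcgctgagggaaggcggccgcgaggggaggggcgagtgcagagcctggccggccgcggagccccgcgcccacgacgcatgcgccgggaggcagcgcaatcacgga
Npas2, chr1:39194022-39194321, plus strand: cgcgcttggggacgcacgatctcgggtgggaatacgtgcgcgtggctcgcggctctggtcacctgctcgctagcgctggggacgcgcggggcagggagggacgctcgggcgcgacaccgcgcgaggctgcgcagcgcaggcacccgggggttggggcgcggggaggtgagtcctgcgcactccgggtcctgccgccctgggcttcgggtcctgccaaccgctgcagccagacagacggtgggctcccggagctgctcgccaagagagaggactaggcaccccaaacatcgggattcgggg

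The printed Arntl window held 4 matches, all on the transcribed direction. TAGGTCA lay at 31 to 37 and TAGGTTA at -6 to 1, counted with the start site as 1 and the base before it as -1. TTGGTCA lay at -246 to -240 and TCGGTCA at -227 to -221. The 3 that end in GGTCA also match the core TNGGTCA, and TAGGTCA alone holds AGGTCA, the sequence bound by many nuclear receptors. TNGGTCA was found in 11.0% of 32851 promoter windows in the table, AGGTCA in 16.3% and TNGGTNA in 32.5%. The printed Clock and Npas2 windows held none of these. The third Clock window held AGGTCA on the opposite strand at -119 to -114, and the Arntl2 window held none. The E-box CACGTG was in no window of the 4 genes and in 7.15% of all windows. These matches describe letters in a window and show no binding.

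Arntl was nearly silent in the libraries labelled control and well expressed in those labelled CM-RevDKO. Arntl (ENSMUSG00000055116, chromosome 7, 113178471 to 113314126) stood at 12.5, 13.0 and 12.9 FPKM in CM-RevDKO replicates 1, 2 and 3. It stood at 0.295, 0.145 and 0.0831 FPKM in control replicates 1, 2 and 3. The groups lie far apart: the lowest CM-RevDKO library was 42.6 times the highest control library. In terms of rank, its mean exceeded that of 72.1% of the genes tested in the libraries labelled CM-RevDKO and of 0.226% in those labelled control. Genes low in every library had been filtered out, so so low a rank in the control libraries was partly fixed by the filter.

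**Figure D1:**
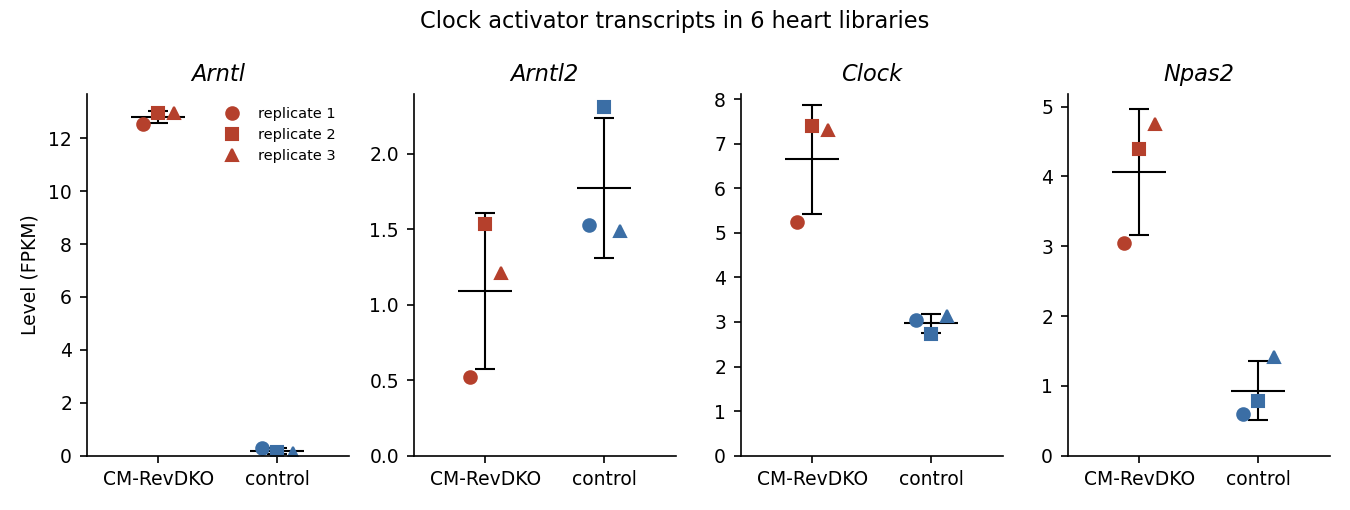
Level of each clock activator transcript in FPKM, in the 3 libraries labelled CM-RevDKO (red) and the 3 labelled control (blue), with the mean (long bar) and SD (whiskers). Arntl, Clock and Npas2 show no overlap between groups, whereas Arntl2 in CM-RevDKO replicate 2, at 1.54 FPKM, lies above 2 control libraries; the vertical scales differ.

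The means of Arntl were 12.8 ± 0.229 FPKM in the libraries labelled CM-RevDKO and 0.174 ± 0.109 FPKM in those labelled control (SD, n = 3 each), a ratio of 73.6. On the log2(FPKM + 1) scale used for testing, where changes of weakly expressed genes come out too small, the fold change was 3.56 (SE 0.11, 95% confidence interval 3.29 to 3.83). With limma it passed the test (adjusted p = 1.72e-05 over all genes). It ranked 4 from the top by log2 fold change and 2 by p among 13256 genes. The libraries labelled CM-RevDKO differed little among themselves, with a coefficient of variation of 1.79%, against 62.5% in those labelled control. In such bulk samples fewer cells that express a gene and less RNA per cell cannot be told apart.

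The transcripts of the partners of BMAL1 were higher too, by less than Arntl. Npas2 (ENSMUSG00000026077, chromosome 1, 39193702 to 39363240), which encodes a heme-binding relative of CLOCK, stood at 3.04, 4.40 and 4.75 FPKM in CM-RevDKO replicates 1, 2 and 3. It stood at 0.603, 0.786 and 1.41 FPKM in control replicates 1, 2 and 3. The groups did not overlap, and the lowest CM-RevDKO library was 2.16 times the highest control library. The means were 4.06 ± 0.903 FPKM and 0.932 ± 0.422 FPKM in the libraries labelled CM-RevDKO and control (SD, n = 3 each), a ratio of 4.36. Npas2 rose by 1.40 on the log2 scale (SE 0.20, interval 0.92 to 1.87, limma adjusted p = 0.0168).

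Clock (ENSMUSG00000029238, chromosome 5, 76209868 to 76305603), which encodes a transcription factor with acetyltransferase activity, stood at 5.24, 7.40 and 7.30 FPKM in CM-RevDKO replicates 1, 2 and 3. It stood at 3.05, 2.73 and 3.13 FPKM in control replicates 1, 2 and 3. Here too the groups were apart, though the gap was small: the lowest CM-RevDKO library was 1.67 times the highest control library. The means were 6.65 ± 1.22 FPKM and 2.97 ± 0.210 FPKM in the libraries labelled CM-RevDKO and control (SD, n = 3 each), a ratio of 2.24. Clock rose by 0.93 on the log2 scale (SE 0.14, interval 0.61 to 1.26, limma adjusted p = 0.0186).

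Arntl2 did not follow its relative. Arntl2 (ENSMUSG00000040187, chromosome 6, 146794729 to 146833529) stood at 0.522, 1.54 and 1.21 FPKM in CM-RevDKO replicates 1, 2 and 3. It stood at 1.53, 2.31 and 1.49 FPKM in control replicates 1, 2 and 3. The groups overlapped, with the lowest value in CM-RevDKO replicate 1 and the highest in control replicate 2. The means were 1.09 ± 0.518 FPKM and 1.78 ± 0.464 FPKM in the libraries labelled CM-RevDKO and control (SD, n = 3 each). The log2 difference of -0.43 (SE 0.23) did not pass the test (limma adjusted p = 0.400), and its interval of -0.96 to 0.10 leaves room for a fall as well as for none.

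Of the 4 members, 3 were called higher and none lower, where 1.26% of all genes tested were called higher and 1.24% lower (2.50% in all). The groups did not overlap for the same 3, as was so for 12.6% of all genes in the higher direction, 10.5% in the lower and 23.1% in either. The median log2 fold change over all genes tested was 0.02. Clock kept its call with CM-RevDKO replicate 1 left out (adjusted p = 0.0117) and lost it with any other library left out (adjusted p of 0.0523 to 0.0839). Npas2 kept it without CM-RevDKO replicate 1 (adjusted p = 0.0211) or control replicate 3 (adjusted p = 0.0252) and lost it without any of the other 4 (adjusted p of 0.0502 to 0.0779). Arntl kept its call in each of the 6 such fits (adjusted p of 2.01e-04 to 4.42e-04).

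**Figure D2:**
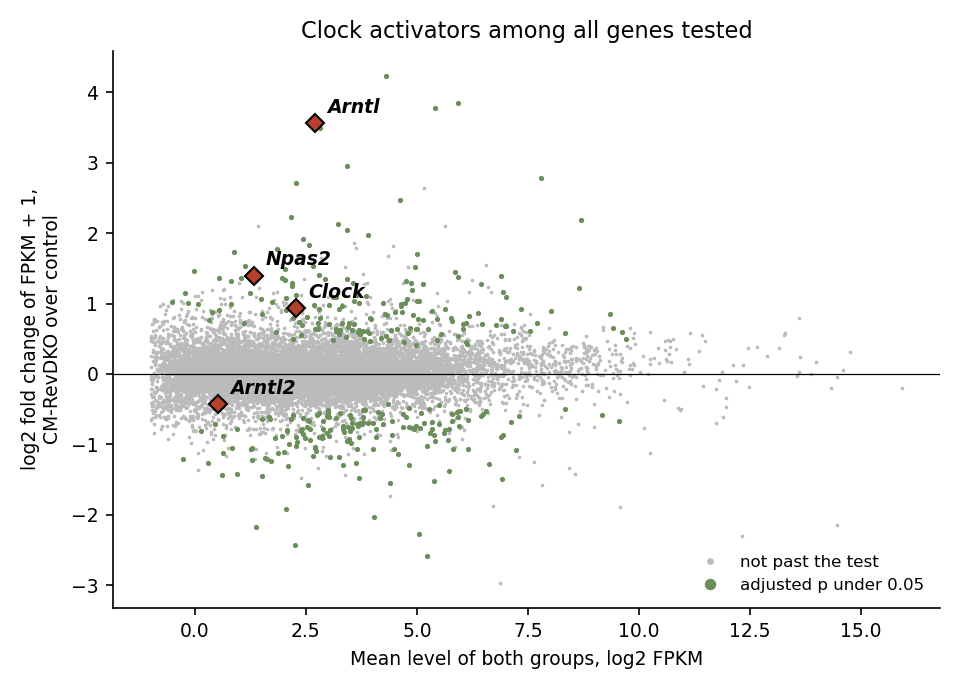
Each point is 1 of 13256 genes, by its mean level (horizontal, log2 FPKM) and its log2 fold change of FPKM + 1, CM-RevDKO over control (vertical), green where the adjusted p is under 0.05. Arntl, at 3.56, lies near the upper edge of all genes, Npas2 at 1.40 and Clock at 0.93 among the called genes, and Arntl2 at -0.43 within the grey cloud.

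All 4 members had their lowest CM-RevDKO value in replicate 1, as did 27.5% of the genes tested. That library was the lowest of the 6 in summed cardiomyocyte markers (24968 FPKM), and below control replicate 1 in fibroblast markers (458 against 482 FPKM). It was the highest in atrial transcripts and in summed endothelial (197), smooth muscle (215), adipocyte (1101), macrophage (170) and erythroid (9278 FPKM) markers. Myl7, the atrial myosin light chain, stood at 288 FPKM in it, at 67.6 and 87.8 FPKM in CM-RevDKO replicates 2 and 3, and at 27.8 to 51.9 FPKM in the libraries labelled control. The summed level of 6 atrial markers was 758 to 1479 FPKM in libraries labelled CM-RevDKO and 201 to 281 FPKM in those labelled control, and 1 of the 5 tested, Nppa, was called. Nppa, which also rises in stressed ventricles, made up most of both sums, with 589 to 813 FPKM in libraries labelled CM-RevDKO and 134 to 164 FPKM in those labelled control. Myl4 and Sln were higher without overlap, as was Myl7, and did not pass the test, whereas Nr2f2 overlapped between groups (log2 -0.11). Bmp10, a defining atrial marker, was listed at 0 in all libraries but CM-RevDKO replicate 1. With the atrial transcripts Myl7, Myl4 and Sln as a covariate Arntl kept its call (adjusted p = 0.00202). In that fit Clock and Npas2 had larger log2 fold changes, 1.19 and 1.67, but missed the threshold (adjusted p = 0.125 and 0.161). The covariate genes themselves separate the groups, so covariate and label can hardly be told apart in this fit. The same holds wherever this covariate is used below, and why calls were lost was not tested.

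The 6 libraries held summed values of 678722 to 712158 FPKM, of which mitochondrially encoded transcripts made up 36.9% to 41.0%. The microRNA gene mmu-mir-689-2 was listed at 3683 and 1813 FPKM in CM-RevDKO replicates 1 and 2 and at 25204 to 42294 FPKM in the other libraries. With those 2 libraries left out Arntl kept its call (adjusted p = 0.013), and Clock and Npas2 did not pass (adjusted p = 0.121 and 0.163). Sequencing depth is unknown, since the file gives no counts, so no counting interval is given for the low values. All 8 cardiomyocyte markers were present, and their summed level was 24968 to 28097 FPKM in libraries labelled CM-RevDKO and 25260 to 27313 FPKM in those labelled control. Single markers were not level, although none was called. Myh6 (log2 -0.35), Tnni3 (-0.21) and Pln (-0.49) were lower without overlap, and Tnnt2 (0.37) and Myl2 (0.26) were higher without overlap. Actc1, Ryr2 and Ttn overlapped between groups. Of the endothelial, fibroblast, macrophage, smooth muscle, adipocyte and erythroid markers none was called, but some lists leaned to the libraries labelled CM-RevDKO. All 5 adipocyte markers tested had positive log2 fold changes (median 0.98), among them Adipoq at 1.22 without overlap and Cfd at 1.67. In CM-RevDKO replicate 3, however, Plin1 (0.367 FPKM) and Cidec (1.52 FPKM) lay below every library labelled control. All 4 erythroid markers had positive log2 fold changes (median 0.48) and overlapped between groups. Of 5 smooth muscle markers, Acta2 stood at 0.69 without overlap. Rgs5 (-0.06), Myh11 (0.31), Tagln (0.55) and Cnn1 (0.47) overlapped between groups. The summed adipocyte markers ran from 592 to 1101 FPKM in libraries labelled CM-RevDKO and from 697 to 821 FPKM in those labelled control. Most of both sums was Fabp4 (log2 0.04). It stood at 581 to 1020 FPKM in libraries labelled CM-RevDKO and at 688 to 807 FPKM in those labelled control. The summed erythroid markers ran from 7432 to 9278 FPKM in libraries labelled CM-RevDKO and from 4344 to 7605 FPKM in those labelled control. The part of these cells in the results was not tested. Of the targeted genes, Nr1d1 (REV-ERBα) was higher in the libraries labelled CM-RevDKO, with means of 50.3 FPKM there and 20.5 FPKM in those labelled control (limma adjusted p = 0.0124), which goes against the direction the label gives. Nr1d2 (REV-ERBβ) stood at 27.4 FPKM in the libraries labelled CM-RevDKO and 35.7 FPKM in those labelled control (adjusted p = 0.175). The labels do not name the deleted exons, and a gene-level value that counts other exons checks nothing about a deletion, so every direction given here rests on the labels.

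The order of the members turned over between the groups. In each of the 3 libraries labelled CM-RevDKO it was Arntl, Clock, Npas2 and Arntl2, from the highest level per length to the lowest. In each of the 3 labelled control it was Clock, Arntl2, Npas2 and Arntl. No neighbours in either order overlapped in their ranges over the 3 libraries; the closest were Npas2, up to 1.41 FPKM, and Arntl2, down to 1.49 FPKM, in the libraries labelled control. Arntl2 was thus the more abundant of the BMAL transcripts in the libraries labelled control, at 5.18 to 17.9 times the level of Arntl, and the less abundant in those labelled CM-RevDKO, at 0.0416 to 0.119 times.

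The summed level of the 4 transcripts was 21.4, 26.3 and 26.2 FPKM in CM-RevDKO replicates 1, 2 and 3 and 5.47, 5.98 and 6.11 FPKM in control replicates 1, 2 and 3. Arntl made up 49.3% to 58.8% of that sum in the libraries labelled CM-RevDKO and 1.36% to 5.39% in those labelled control. The share of Clock was 24.6% to 28.2% in the libraries labelled CM-RevDKO and 45.7% to 55.7% in those labelled control. Npas2 held 14.2% to 18.1% in the libraries labelled CM-RevDKO and 11.0% to 23.0% in those labelled control, so its share overlapped although its level did not.

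**Figure D3:**
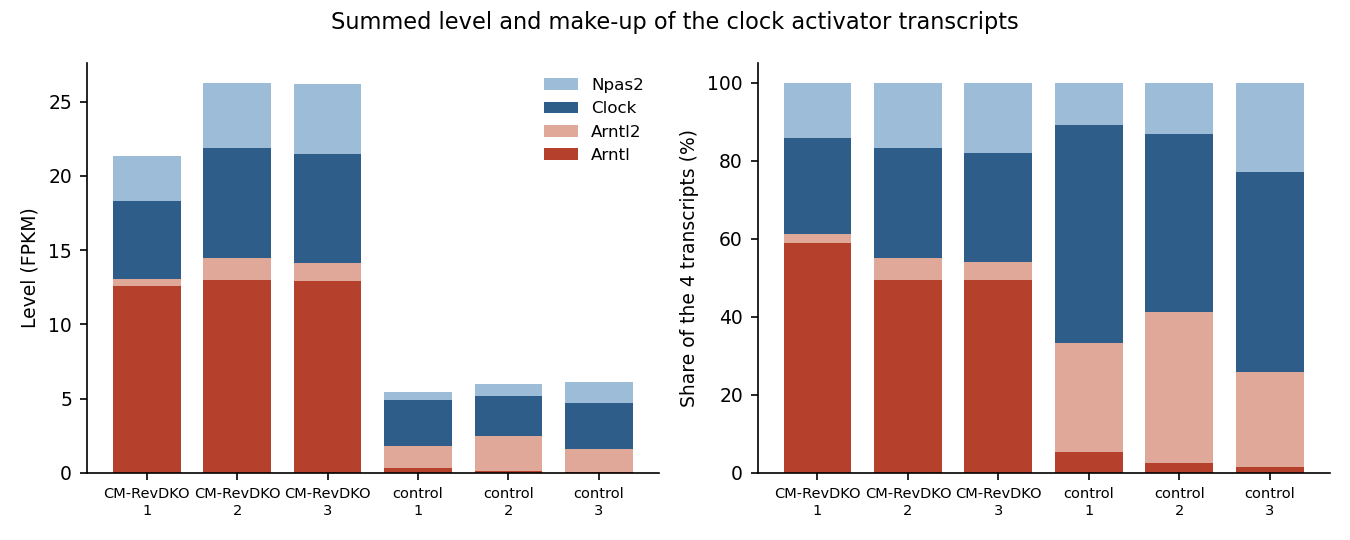
Stacked levels of the 4 transcripts in each library, in FPKM (left) and as a percentage of their sum (right). The sum is 21.4 to 26.3 FPKM in libraries labelled CM-RevDKO and 5.47 to 6.11 FPKM in those labelled control, and Arntl (dark red) is the largest part only in the libraries labelled CM-RevDKO.

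Because BMAL proteins act as pairs with CLOCK or NPAS2, levels were also set against each other within a library, as 3 ratios. The summed level of Clock and Npas2 was 0.634, 0.814 and 0.852 times that of Arntl and Arntl2 in CM-RevDKO replicates 1, 2 and 3, and 2.00, 1.43 and 2.89 times in control replicates 1, 2 and 3. The partner genes thus had the higher summed level in each library labelled control and the BMAL genes in each labelled CM-RevDKO. Npas2 stood at 0.580, 0.594 and 0.651 times the level of Clock in CM-RevDKO replicates 1, 2 and 3, and at 0.198, 0.288 and 0.449 times in control replicates 1, 2 and 3. Clock stood at 0.418 to 0.571 times the level of Arntl in the libraries labelled CM-RevDKO and at 10.3 to 37.7 times in those labelled control. None of the 3 ratios overlapped between groups. An exact two-sided permutation test gave p = 0.10 for each, also adjusted over the 3, which is the smallest that 3 libraries against 3 allow, so none could reach 0.05. These ratios share the transcripts tested above and add no independent evidence.

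Among 6 clock genes known to carry ROR elements, the class to which Arntl, Clock and Npas2 belong, 5 rose and 1 did not pass the test, with a median log2 fold change of 1.34. By comparison, 1.26% of all genes tested were called higher. Arntl, Clock and Npas2 are 3 of those 5, so the count and the median largely restate the results above and add no independent evidence. Of the 3 other genes, Nfil3 and Nr1d1 rose and Cry1 did not pass the test. Nfil3, which encodes the D-box repressor E4BP4, stood at 16.4, 14.8 and 16.0 FPKM in CM-RevDKO replicates 1, 2 and 3, against 2.27, 3.89 and 2.51 FPKM in control replicates 1, 2 and 3 (limma adjusted p = 0.00111). Its log2 fold change of 2.13 stands between those of Arntl and Npas2. The values of Nr1d1 can include reads of the overlapping gene Thra. The number that rose was 3 without CM-RevDKO replicate 2 or 3 or control replicate 1 or 2, and 1 without CM-RevDKO replicates 1 and 2. It was 2, Arntl and Nfil3, with the atrial covariate and also in a test against a fold change of 1.5. Nr1d1 lost its call in both of these fits (adjusted p = 0.293 with the covariate and 0.407 against that fold change).

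Cry1, the Cryptochrome repressor gene of this class, had the profile nearest to that of Clock among genes averaging 1 FPKM or more that have no provisional symbol. It stood at 5.26, 7.19 and 8.37 FPKM in CM-RevDKO replicates 1, 2 and 3 and at 3.51, 3.65 and 3.71 FPKM in control replicates 1, 2 and 3. The groups did not overlap, but Cry1 did not pass the test (log2 0.76, limma adjusted p = 0.0540). Without CM-RevDKO replicate 1, its lowest library of that group, it did (adjusted p = 0.0199).

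The E-box genes that BMAL1 with CLOCK or NPAS2 is known to activate went both ways. Of 16 such genes 2 rose, 2 fell and 12 did not pass the test, with a median log2 fold change of -0.087. Over all genes tested, 1.26% were called higher and 1.24% lower. Nr1d1 and Gm129, the repressor gene also called Ciart or Chrono, were the 2 that rose. Gm129 stood at 14.2, 13.8 and 14.0 FPKM in CM-RevDKO replicates 1, 2 and 3, against 9.07, 8.04 and 7.22 FPKM in control replicates 1, 2 and 3 (log2 0.73, adjusted p = 0.0151). Nampt and Wee1 were the 2 that fell. Nampt, the rate-limiting enzyme gene of NAD salvage, averaged 10.7 FPKM in the libraries labelled CM-RevDKO and 55.9 FPKM in those labelled control (log2 -2.28, adjusted p = 1.40e-04). Wee1, which encodes a kinase that delays mitosis, averaged 4.17 FPKM in the libraries labelled CM-RevDKO and 7.93 FPKM in those labelled control (log2 -0.78, adjusted p = 0.0140). A gene can carry both kinds of element: Cry1 and Nr1d1 stand in both lists.

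Of the classical output and Period genes given here, none passed the test. Dbp, Per2 and Per3 were named after their values were seen. Dbp, a D-box activator gene used as a reporter of BMAL1 activity, averaged 88.8 FPKM in the libraries labelled CM-RevDKO and 81.2 FPKM in those labelled control (log2 0.12, adjusted p = 0.575). Per1 had means of 12.5 FPKM and 16.1 FPKM in the libraries labelled CM-RevDKO and control (adjusted p = 0.239), and Per2 had 5.97 FPKM in the CM-RevDKO libraries and 6.38 FPKM in the control libraries (adjusted p = 0.872). Per3 stood at 5.97 to 8.98 FPKM in libraries labelled CM-RevDKO and at 11.6 to 13.9 FPKM in those labelled control, without overlap, and did not pass the test (log2 -0.66, adjusted p = 0.0800). The count of E-box genes that rose was 1 without CM-RevDKO replicate 2 or control replicate 2 or 3, when Gm129 lost its call. In the same 3 fits the count that fell was 1, as Wee1 lost its call. With the atrial covariate none of the E-box genes was called higher and 1, Nampt, was called lower.

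**Figure D4:**
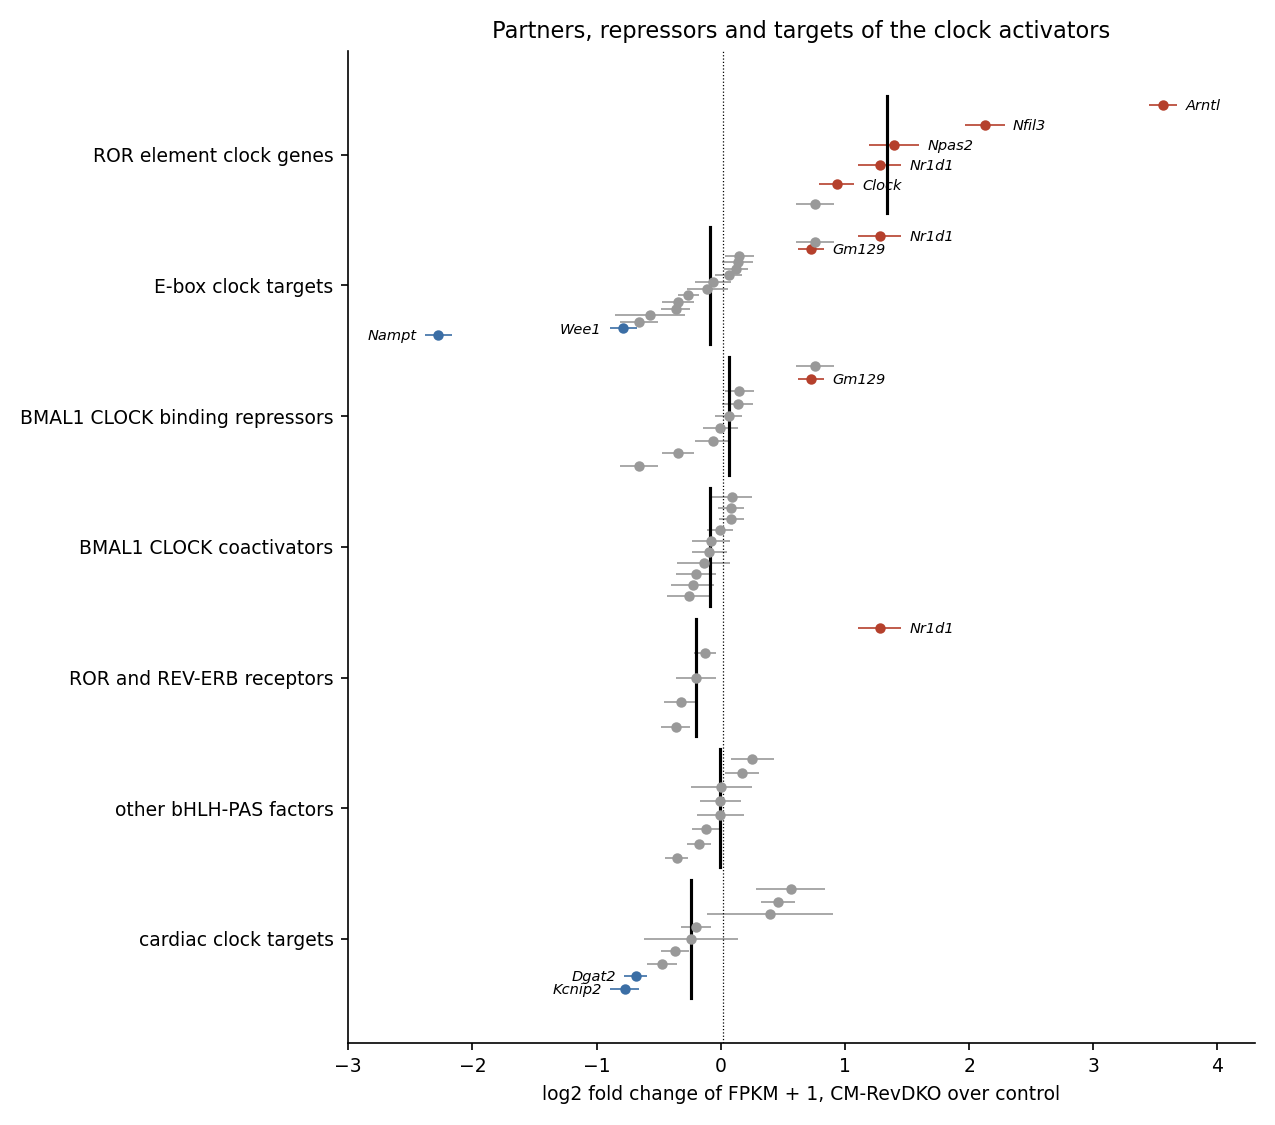
log2 fold change of FPKM + 1, CM-RevDKO over control (horizontal), with its SE, for each tested gene of 7 lists (rows); red was called higher, blue lower and grey was not past the test, and called genes are named. Black bars mark list medians and the dotted line the median of all genes, 0.02; the ROR element list has its median at 1.34, and the coactivator and other bHLH-PAS lists have no called gene.

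Other genes encode proteins that bind BMAL1 and CLOCK and hold them back. Of 9 such genes 1, Gm129, was called higher and none lower, against 1.26% and 1.24% of all genes tested, with a median of 0.06. Cipc, which encodes a CLOCK-interacting repressor, averaged 14.4 FPKM in the libraries labelled CM-RevDKO and 14.3 FPKM in those labelled control (adjusted p = 0.994). Without CM-RevDKO replicate 1 the number called higher was 2. It was 0 without CM-RevDKO replicate 2 or control replicate 2 or 3, and with the atrial covariate (adjusted p = 0.316 for Gm129).

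None of 10 coactivators and chromatin partners of BMAL1 and CLOCK was called, against 2.50% of all genes tested. Their log2 fold changes ran from -0.26 to 0.09, with a lowest adjusted p of 0.502. Thrap3, a subunit of the TRAP coactivator complex that binds CLOCK and BMAL1, averaged 34.2 FPKM in the libraries labelled CM-RevDKO and 32.2 FPKM in those labelled control. The acetyltransferase gene Kat2b stood at 23.6 FPKM in the libraries labelled CM-RevDKO and 22.3 FPKM in those labelled control.

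The wider bHLH-PAS family showed no change past the test. Of 15 other family and related coactivator genes listed, 8 were in the table and tested. None was called, against 2.50% of all genes tested, with log2 fold changes of -0.36 to 0.26. Epas1, which encodes the hypoxia factor HIF-2α, stood at 49.5 to 52.0 FPKM in libraries labelled CM-RevDKO and at 59.8 to 68.8 FPKM in those labelled control, without overlap (log2 -0.36, adjusted p = 0.0980). Hif1a, the gene of HIF-1α, averaged 16.3 FPKM in the libraries labelled CM-RevDKO and 16.2 FPKM in those labelled control (adjusted p = 0.997). Whether the members differ from their relatives as a set was not tested.

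Of the receptors that act on ROR elements and their corepressor, 5 of the 6 genes listed here were tested, 1 rose (Nr1d1) and 4 did not pass the test, with a median of -0.20. The share called higher over all genes tested was 1.26%. Ncor1, the gene of the corepressor that REV-ERB proteins recruit, had a log2 difference of -0.20 (adjusted p = 0.586). Rora, the gene of the activator RORα, stood at 4.13 to 4.47 FPKM in libraries labelled CM-RevDKO and at 4.86 to 7.06 FPKM in those labelled control, without overlap, and did not pass the test (log2 -0.32, adjusted p = 0.308); it was named after its values were seen.

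Of 9 heart genes known from cardiac clock mutants or as targets of clock factors in heart, 2 fell and none rose, with a median of -0.24. The shares over all genes tested were 1.24% called lower and 1.26% higher. Kcnip2, which encodes a subunit of the transient outward potassium channel, stood at 24.9, 31.5 and 32.1 FPKM in CM-RevDKO replicates 1, 2 and 3, against 52.0, 50.5 and 50.2 FPKM in control replicates 1, 2 and 3 (log2 -0.77, adjusted p = 0.0169). Dgat2, an enzyme gene of triglyceride synthesis, averaged 107 FPKM in the libraries labelled CM-RevDKO and 172 FPKM in those labelled control (log2 -0.69, adjusted p = 0.0118). Both lost their calls without CM-RevDKO replicate 2 or any library labelled control, and none of the list was then called, nor with the atrial covariate (adjusted p = 0.380 for Kcnip2 and 0.183 for Dgat2).

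Other genes had profiles close to those of the members. Likeness was measured as the root mean square difference, over the 6 libraries, between log2(FPKM + 1) values set to each gene's mean in the libraries labelled control, so 0 is identical. The comparison gives values and tests nothing, and any gene called by a similar amount comes near. Nearest to Arntl were Slc41a3, a magnesium transporter gene (0.21), and Cdkn1a, the gene of the cell cycle inhibitor p21 (0.21). Slc41a3 stood at 111 to 119 FPKM in libraries labelled CM-RevDKO and at 6.32 to 8.30 FPKM in those labelled control. Cdkn1a stood at 71.8 to 85.4 FPKM in libraries labelled CM-RevDKO and at 4.19 to 5.67 FPKM in those labelled control. The next 3, Nppb, Ighg2c and Ppp1r1b, were farther away (0.62, 0.62 and 0.63). Nppb was called higher (limma adjusted p = 0.00115) but lost its call with the atrial covariate (adjusted p = 0.0578). Ighg2c is an immunoglobulin segment that can share reads with close copies.

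After Cry1 (0.15), the genes nearest to Clock were Hspb3, a small heat shock protein gene of muscle, Gpt, an alanine aminotransferase gene, Rtn4rl1 and Igf2bp2 (0.15 to 0.17). Among the genes nearest to Npas2 were the cyclin gene Ccnd2, Gsg1l, the glutathione transferase gene Gstm7 and Ccnjl (0.17 to 0.20). These 8 genes, Cry1 not counted, were all called higher (adjusted p of 7.54e-04 to 0.0116). Rtn4rl1 lost its call without CM-RevDKO replicate 2 (adjusted p = 0.0675) or control replicate 1 (0.0555) or 3 (0.0559). Igf2bp2 lost its call without CM-RevDKO replicate 2 (adjusted p = 0.0555) or control replicate 3 (0.0502). With the atrial covariate Hspb3, Gpt, Rtn4rl1, Igf2bp2, Ccnd2 and Ccnjl were not called (adjusted p of 0.0853 to 0.253), and Gsg1l and Gstm7 were.

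The genes nearest to Arntl2 also had their lowest value in CM-RevDKO replicate 1. They were Pisd-ps2, Pfkfb2, Abhd14b, Asb15 and Daam1, at 0.10 to 0.13, and none of them passed the test (limma adjusted p of 0.119 to 0.528). Abhd14b, Asb15 and Daam1 were lower in the libraries labelled CM-RevDKO without overlap, as were 10.5% of all genes tested. Pisd-ps2 and Pfkfb2 overlapped between groups, as did Arntl2. Pfkfb2, the heart form of the enzyme that makes and removes fructose 2,6-bisphosphate, stood at 7.32 FPKM in CM-RevDKO replicate 1, at 15.3 and 13.8 FPKM in CM-RevDKO replicates 2 and 3, and at 14.1, 19.5 and 15.9 FPKM in control replicates 1, 2 and 3. Without CM-RevDKO replicate 1 the log2 difference of Arntl2 was -0.22 (adjusted p = 0.699).

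Among the members themselves, Clock and Npas2 were the closest by the same measure (0.37). Arntl lay 1.56 from Npas2 and 1.86 from Clock, and Arntl2 lay 0.98 from Clock, 1.32 from Npas2 and 2.83 from Arntl. The BMAL genes Arntl and Arntl2 thus stood farthest apart, and the partner genes of BMAL1 nearest.

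**Figure D5:**
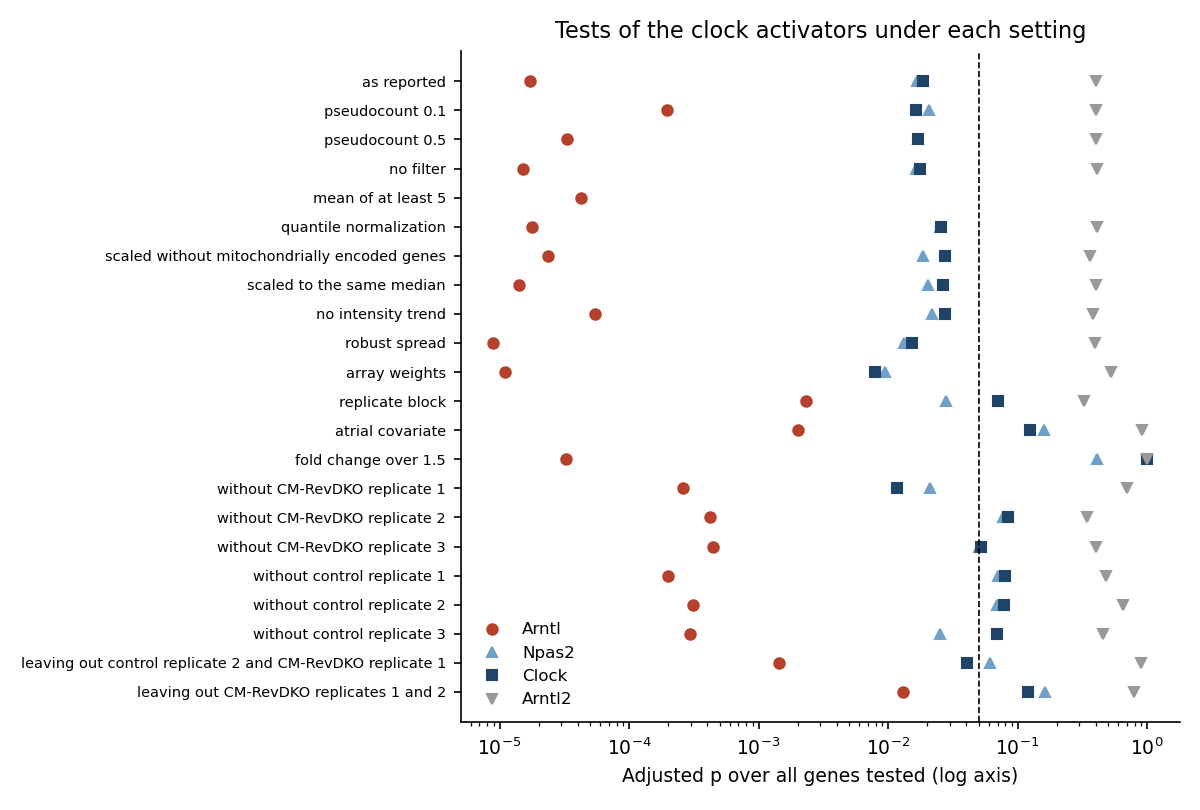
Adjusted p over all genes tested (horizontal, log axis) of each member under each setting (rows), with the dashed line at 0.05. Arntl lies left of the line in every setting shown, with a largest adjusted p of 0.0130; Clock and Npas2 cross it in several, and Arntl2 lies right of it throughout.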

How the data were processed

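RNA from 6 mouse heart samples was profiled by RNA sequencing. The authors deposited a single table of FPKM values per gene, with no counts. Per the submitters' processing notes, HISAT2 and StringTie were used with mm10 (versions and strand setting are not stated). The unit is not written in the file. It was read as FPKM from the values, and TPM cannot be told apart from it with certainty. Depth is therefore unknown. The other 24 of 30 samples were not analysed here, and 0 columns belonged to other samples.

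Groups were taken from the labels, 3 libraries each. The labels do not say whether these are separate animals, so the p-values rest on sample spread that may be technical. Identical columns were not found. Genes averaging 0.5 or more across all 6 columns were tested on log2(FPKM + 1) with limma 3.58.1 (R 4.3.3), with an intensity trend and Benjamini-Hochberg adjustment over all genes tested, called at 0.05. The pipeline was tested on simulated data. Members and lists were chosen with earlier results of these data known. Some genes are not reported here and were left out of the lists. The text names genes by a rule: the members, the targeted genes, the list genes past the test with the smallest p (else those with the highest mean), and the nearest 5 profiles per member. Per2, Per3, Dbp, Rora and the atrial markers were added after their values were seen. Cipc is listed in the table as 2310044G17Rik and Ciart as Gm129. Ratios were compared with exact permutation tests. RefSeq promoter windows were matched by symbol for 4 of 4 members and searched on both strands. Protein sequences were not used here.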

Additional observations from a re-analysis of the deposited data

How the results depend on the processing

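Arntl passed the test in 21 of 21 alternatives, with log2 fold changes of 3.50 to 5.63 and adjusted p of 8.95e-06 to 0.0130. The highest log2 value came with a pseudocount of 0.1. Clock passed in 11 of 20 and Npas2 in 12 of 20, each positive in all 20. Arntl2 passed in 0 of 20. Clock, Npas2 and Arntl2 have means under 5 FPKM, so a filter at that level gave no value for them.

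With the replicate number as a block, which the labels do not say pairs the libraries, Clock stood at 0.93 (adjusted p = 0.0704) and 115 genes were called, against 332. Same-numbered libraries deviated together with r of -0.037, -0.0642 and 0.0933, so the numbers were not taken as pairs. With the atrial covariate, Clock stood at 1.19, Npas2 at 1.67, Arntl2 at 0.20 (sign turned, adjusted p = 0.908) and 30 genes were called. Tested against a fold change of 1.5, Clock at 0.93 (adjusted p = 1) and Npas2 at 1.40 (adjusted p = 0.414) did not pass, and 35 genes did. Leaving out each library in turn gave log2 fold changes of 0.86 to 1.07 for Clock, 1.27 to 1.56 for Npas2 and -0.58 to -0.22 for Arntl2, and 120 to 322 called genes. Leaving out control replicate 2 and CM-RevDKO replicate 1 gave 1.504 for Npas2 (adjusted p = 0.0616) and 105 genes. Leaving out CM-RevDKO replicates 1 and 2, so that the lone library is assumed to vary like the controls, gave 1.07 for Clock (adjusted p = 0.121), 1.595 for Npas2 (adjusted p = 0.163) and 21 genes. Scaling without mitochondrially encoded genes called 118 higher and 212 lower, against 167 and 165. The cause of these shifts was not tested.

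Some genes that were not called changed sign; 2310044G17Rik, Hif1a and Per2 were near 0 to begin with, whereas Pfkfb2 (-0.46), Abhd14b (-0.43) and Pisd-ps2 (-0.31) were not. 2310044G17Rik (Cipc) stood at 0.019 with array weights, 0.31 with the atrial covariate, and 0.18 and 0.22 with the pairs of libraries above left out. Hif1a stood at 0.10 with array weights, 0.31 with the covariate, and 0.10 and 0.10 with those pairs left out. With the covariate Pisd-ps2 stood at 0.27, Pfkfb2 at 0.33, Abhd14b at 0.048 and Dbp at -0.063, and Pisd-ps2 stood at 0.024 without control replicate 2 and CM-RevDKO replicate 1. Leaving out each library in turn gave -0.12 to 0.12 for 2310044G17Rik, -0.11 to 0.16 for Hif1a, -0.453 to -0.13 for Pisd-ps2 and -0.15 to 0.089 for Per2. With 3 libraries a group and unknown depth, control values of Arntl under 0.3 FPKM have no counting error that can be given.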
